A study of Homo sapiens with 6 samples.

Results

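The genes described here are those of the cerebral cavernous malformation (CCM) complex and the signalling line that it is known to restrain in endothelium. Here these genes were measured in NCI-H1299, an established line of human lung carcinoma cells. They are 9 of the 60617 genes in the count table: CCM2, KRIT1 and PDCD10 of the complex, the kinases MAP3K3, MAP2K5 and MAPK7, and the transcription factors KLF2, KLF4 and KLF6. Members were found by gene symbol. They were chosen by a model that had seen results of the knockdown comparison, in which CCM2 was among the largest falls and KLF4 among the larger rises. Their differences between the groups are therefore given as a description, without p-values. All 9 passed the filter on low counts, as did 17223 genes in all.

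RNA sequencing was done on 3 libraries of wild-type control cells, titled Puro, and on 3 libraries of cells with FuHsi knocked down, titled Sh1. No other treatment, time or allele is named in the labels, and Puro and Sh1 are not spelled out there. All libraries come from 1 cell line grown in the same medium, and nothing in the labels says that replicates were separate cultures, so the spread between them may be technical. The series asks what FuHsi does for the nucleolus. The level of FuHsi itself is not analysed here, which leaves the labels unchecked on this point.

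The CCM proteins form a scaffold that is best known from the endothelium of brain vessels, where loss of any of the 3 genes leads to vascular malformations. CCM2 binds the kinase MEKK3 (gene MAP3K3) and holds it in check. MEKK3 starts a cascade through MEK5 (MAP2K5) and ERK5 (MAPK7) to transcription factors of the MEF2 family, which switch on KLF2 and KLF4. In endothelial cells that lack a CCM protein this cascade runs high and KLF2 and KLF4 rise. In epithelial cells KLF4 is better known for its part in growth arrest and differentiation, and KLF6 is a widely expressed relative.

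The promoters of KLF2 and KLF4 are shown because the cascade is known to end there. Each run holds the 250 bases before the gene's start on the coding strand, from RefSeq on GRCh38.p14; GENCODE v29 places the outer end of KLF4 further upstream. KLF2 lies at chr19:16324576-16324825 on the plus strand and KLF4 at chr9:107489770-107490019 on the minus strand. Capitals mark a match to the MEF2 consensus, which is a pyrimidine, the letters TA, 4 bases that are each A or T, the letters TA and a purine.

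KLF2: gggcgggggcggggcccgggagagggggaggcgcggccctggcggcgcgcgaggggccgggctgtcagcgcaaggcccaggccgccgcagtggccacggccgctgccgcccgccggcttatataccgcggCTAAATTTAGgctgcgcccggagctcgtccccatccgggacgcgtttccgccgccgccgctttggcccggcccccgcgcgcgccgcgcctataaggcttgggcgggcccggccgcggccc
KLF4: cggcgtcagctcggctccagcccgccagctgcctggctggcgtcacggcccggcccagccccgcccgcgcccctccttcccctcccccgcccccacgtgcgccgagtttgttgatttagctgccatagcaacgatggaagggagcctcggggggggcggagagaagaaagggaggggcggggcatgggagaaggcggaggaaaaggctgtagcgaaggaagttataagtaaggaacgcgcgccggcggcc

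The KLF2 match runs from 120 to 111 bases before the start and reads the same on both strands. The members have 15 windows of 250 bases before and 50 bases after a start, searched on both strands, and the KLF2 window is the 1 that holds this motif. Of all 35116 windows in the RefSeq table, 2.99% hold it. The letters CACCC, a core that KLF factors bind, are in 59.9% of all windows on either strand, and in none of the windows of KLF2, KLF4, KLF6 and MAP2K5. A match is a run of letters and no evidence of binding.

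All 9 members were called at an adjusted p under 0.05, 6 of them higher and 3 lower in knockdown. Among all tested genes 61.6% were called, with 30.7% higher and 30.9% lower. Knockdown and control values did not overlap for any of the 9 members, nor for 65.3% of tested genes. Only CCM2 and KLF4 were called with a change of at least 2-fold, as were 12.3% of tested genes. Since the members were chosen on this comparison, nothing is read from these counts. The median log2 fold change was 0.16 over the members and 0.03 over all tested genes. Values are read counts per 1000000 counts of the library (CPM), with TMM scaling between libraries (trimmed mean of M values), and folds are knockdown over control.

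**Figure D1:**
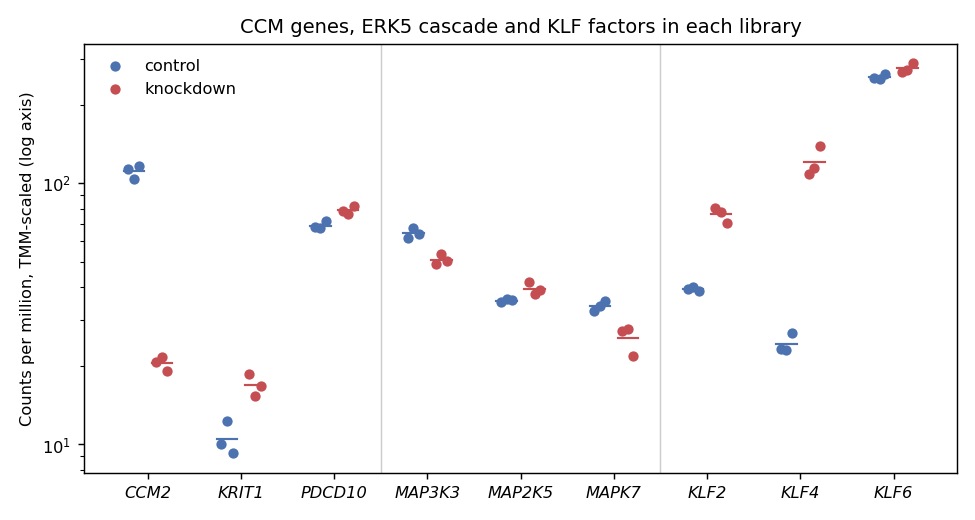
CPM of the 9 genes in each of the 6 libraries, on a log axis, with a line at the mean of each group of 3 (blue, control; red, knockdown). CCM2 goes from 103.8 CPM or more in control to 21.6 CPM or less in knockdown, and KLF4 from 26.7 CPM or less to 109 CPM or more; heights are not comparable between genes, since CPM is not per length.

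CCM2, the adaptor that joins KRIT1 to PDCD10 and MEKK3, showed the largest change of the 9. It lies at chr7:44999475-45076469 on the plus strand (ENSG00000136280). Its level was 113.17, 103.8 and 117.0 CPM in the control libraries and 20.6, 21.6 and 19.1 CPM in the knockdown libraries. The groups were far apart, with every knockdown library well below every control library. The mean went from 111 ± 6.79 to 20.4 ± 1.24 CPM (SD, n = 3), which is 5.45-fold lower, with a log2 fold change of -2.44 ± 0.06 (SE). Of the 5317 genes called lower, 9 fell further. None of its exonic bases is shared with another gene. The nearest tested genes on either side moved far less. SNHG15, a snoRNA host gene, fell by 0.38 and TBRG4 fell by 0.32 on the log2 scale, from 47.8 to 36.7 and from 235 to 188 CPM.

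The other CCM genes went the opposite way. KRIT1 (ENSG00000001631, chr7:92198969-92246166, minus strand), which anchors the complex at cell junctions, was at 10.03, 12.3 and 9.24 CPM in control and 18.6, 15.3 and 16.8 CPM in knockdown. The lowest knockdown value lay above the highest control value, and the log2 fold change was 0.68 ± 0.10 (SE). Its counts were the smallest of the members, from 267 to 550 per library, and the most uncertain. An annotated read-through gene, AC000120.3, and a small overlapping gene cover 47.9% of its exonic bases. The table lists the read-through gene at 0 in all 6 libraries, and how reads in shared exons were counted is not given in the sources used here. ANKIB1, whose start lies 68 bases from that of KRIT1 on the other strand, was at 177 and 178 CPM and was not called (adjusted p = 0.85, edgeR).

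PDCD10 (ENSG00000114209, chr3:167683298-167734939, minus strand), which binds the GCKIII kinases, was higher by a small amount. Control values ran from 67.3 to 71.4 CPM and knockdown values from 76.3 to 82.0 CPM. The log2 fold change was 0.20 ± 0.05 (SE). SERPINI1, which starts 304 bases away on the other strand, fell from 3.63 to 2.62 CPM.

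The ratios of CCM2 RNA to the RNA of the other CCM genes changed accordingly, and protein was not measured here. Levels were compared between genes as CPM per kilobase of merged exons. Per length, CCM2 stood at 0.67, 0.62 and 0.65 times PDCD10 in the control libraries and at 0.11, 0.11 and 0.09 times PDCD10 in knockdown. Against KRIT1 the ratio went from 8.16 ± 1.64 to 0.92 ± 0.12 (SD, n = 3). In knockdown the per-length levels of CCM2 (2.33 to 2.63) and KRIT1 (2.47 to 3.00) overlapped, whereas in control CCM2 was the higher in every library. The KRIT1 figures depend on its shared exons. Over unshared exon bases alone, with all counts kept, the ratio of CCM2 to KRIT1 went from 4.25 ± 0.85 to 0.48 ± 0.06, and in knockdown KRIT1 (4.75 to 5.75) no longer overlapped CCM2.

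The 3 kinases of the cascade changed little, and not in one direction. MAP3K3 (ENSG00000198909, chr17:63622415-63696303, plus strand), which encodes MEKK3, was at 61.6 to 67.6 CPM in control and 48.9 to 53.6 CPM in knockdown. The change was -0.34 ± 0.05 in log2 (SE). MAPK7 (ENSG00000166484, chr17:19377721-19383544, plus strand), which encodes ERK5, was at 32.5 to 35.5 CPM in control and 21.9 to 27.6 CPM in knockdown. The change was -0.41 ± 0.07 in log2 (SE). The lowest of the knockdown values for MAPK7 stood in 1 library, at 21.9 CPM against 27.2 and 27.6 in the others. MAP2K5 (ENSG00000137764, chr15:67542709-67807123, plus strand), which encodes MEK5, was at 35.1 to 35.9 CPM in control and 37.8 to 41.9 CPM in knockdown, which is a log2 change of 0.16 ± 0.06 (SE).

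The groups did not overlap for any of the 3 kinases, but the gap for MAP2K5 was under 2 CPM. MAP2K5 lost its call in 6 of 12 other settings, among them the leaving out of control replicate 1, 2 or 3 or of knockdown replicate 1. The log2 fold change of MAP2K5 in these was 0.139, 0.155, 0.151 and 0.106, against 0.155 with all libraries. MAP3K3 shares 6.58% of its exonic bases with LIMD2, which rose by 0.33 on the log2 scale. MAPK7 shares 6.66% with B9D1, which fell by 0.26 on the log2 scale, and MFAP4, which was not called. Per length, MAP3K3 was at 1.49 ± 0.05 times MAP2K5 in control and at 1.07 ± 0.10 times in knockdown (SD, n = 3). With the longest transcript as length, the ratio was 0.88 ± 0.03 and 0.63 ± 0.06, so which kinase is higher depends on the length.

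KLF4 had the largest rise among the members. It lies at chr9:107484852-107490482 on the minus strand (ENSG00000136826). It was at 23.1, 23.02 and 26.7 CPM in the control libraries and at 109, 114 and 139 CPM in the knockdown libraries. The mean went from 24.3 ± 2.07 to 121 ± 16.1 CPM (SD, n = 3), a 4.97-fold change and 2.31 ± 0.10 (SE) on the log2 scale. The knockdown libraries differed from each other more than the control libraries did, with knockdown replicate 3 the highest. Of the 5295 genes called higher, KLF4 ranked at 235 by size of change.

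KLF2 (ENSG00000127528, chr19:16324817-16327874, plus strand) rose by less. It was at 39.3, 40.002 and 38.7 CPM in control and at 80.1, 78.0 and 70.4 CPM in knockdown. The control libraries were tightly grouped and all knockdown values were well above them. The log2 fold change was 0.95 ± 0.05 (SE), and KLF2 ranked at 1682 among the genes called higher. Its processed pseudogenes took few counts. KLF2P1 was at 4.36 and 4.23 CPM and KLF2P4 at 2.89 and 3.31 CPM in control and knockdown, and neither was called. The neighbours AP1M1 and EPS15L1 fell, by 0.34 and 0.21 on the log2 scale.

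KLF6 (ENSG00000067082, chr10:3775996-3785281, minus strand) was the most abundant of the 9 and hardly moved. It was at 251 to 262 CPM in control and 268 to 288 CPM in knockdown, which is a log2 change of 0.11 ± 0.03 (SE). Its call was lost without control replicate 2 (0.09) and without knockdown replicate 3 (0.08).

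**Figure D2:**
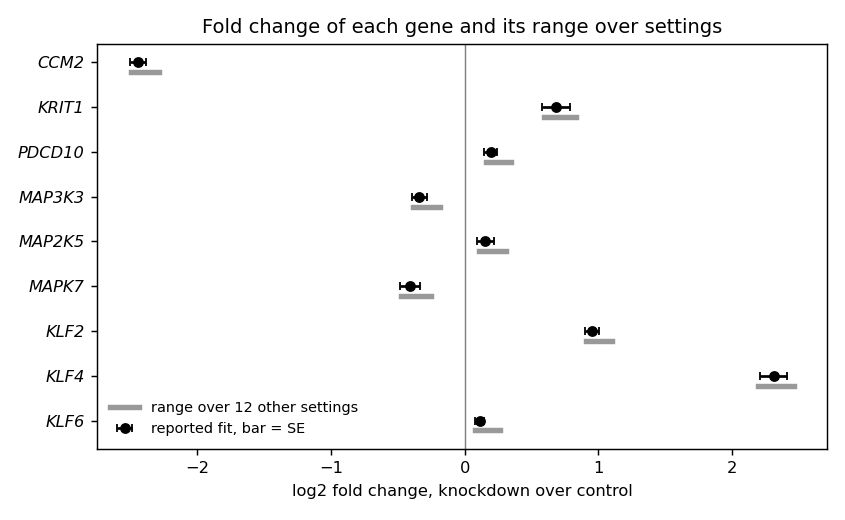
Log2 fold change of each gene, knockdown over control, with its standard error (black), and the range of the same value over the 12 other settings (grey). No range crosses 0; those of KLF6, MAP2K5 and PDCD10 come closest to it on the side of the rises.

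In order of per-length level, control cells ran from KLF6 (41.5 ± 0.94) through PDCD10 (21.03 ± 0.69), KLF2 (19.5 ± 0.31), CCM2 (13.6 ± 0.83) and MAP3K3 (10.6 ± 0.50) to MAP2K5 (7.07 ± 0.09), KLF4 (6.63 ± 0.57), MAPK7 (6.53 ± 0.28) and KRIT1 (1.70 ± 0.26; all SD, n = 3). The values of KLF4 overlapped those of MAP2K5 and of MAPK7, and the other neighbours in this order did not overlap. In knockdown the order was KLF6 (44.9), KLF2 (37.7), KLF4 (33.0), PDCD10 (24.1), MAP3K3 (8.36), MAP2K5 (7.86), MAPK7 (4.92), KRIT1 (2.72) and CCM2 (2.49). There KLF2 and KLF4 overlapped, as did MAP3K3 with MAP2K5 and KRIT1 with CCM2. The order depends on the length used. With the longest transcript in place of merged exons, MAP2K5 (15.2) stood above MAP3K3 (13.4) in control, and CCM2 (19.6 to 22.1) overlapped KLF2 (19.2 to 19.8). In knockdown that length put KLF4 (38.7 to 49.4) in a range that overlapped both PDCD10 (36.9 to 39.7) and KLF2 (34.9 to 39.7).

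Sites of short words named by an earlier scan are shown for the members that hold them. That scan of these data for 7-base words linked to fold changes gave CTATTGA, then CCTATTG, and also the word ACCTATT; they overlap each other. Both the words and the members were chosen on the same comparison, so nothing is read from which members hold a word. The words were searched on the sense strand in the coding sequence and 3′ UTR of 1 transcript per gene, the one with the longest coding sequence in GENCODE v29. The sites are shown with the words in capitals.

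CCM2: catgatgttCCTATTGtaactctcaga
MAP3K3: caaaatgtgCCTATTGctagagctcct
MAPK7, first site: agccctccaACCTATTGgtgaatgaga
MAPK7, second site: atacacaggCTATTGAcctctggtctg

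The CCM2 and MAP3K3 sites lie in the 3′ UTR, at bases 1809 to 1815 of 1881 and 3546 to 3552 of 4818 in the transcript. Both MAPK7 sites are in the coding sequence, at bases 946 to 953 and 1111 to 1117 of 3149. The other 6 members had 0 matches. Of 13307 tested coding genes, 27% held at least 1 of the words in either region. The share was 29.7% of genes called lower, 27.1% of those called higher and 23.5% of those not called. The words came from a scan of these same data, so nothing is read from these shares either.

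The profiles most like those of CCM2, KLF4 and KLF2 were found by Euclidean distance over the 6 libraries. Log2 CPM was taken after subtracting each gene's control mean, and 12439 other genes with a symbol and a mean log2 CPM of at least 1 were compared. Since control and knockdown differ so widely, this likeness is mostly a likeness in fold. Nearest to CCM2 were RFC3 (distance 0.15 log2 units), CCNE1 (0.27), NCAPG2 (0.28) and MAD2L1 (0.30), with log2 fold changes of -2.41, -2.35, -2.51 and -2.49. They encode a clamp loader subunit, cyclin E1, a condensin II subunit and a spindle checkpoint protein. Nearest to KLF4 were ALDH1L2 (0.18), ZNF267 (0.18), ZC3HAV1 (0.20) and PARP14 (0.22), which rose by 2.30 to 2.39. ALDH1L2 is a mitochondrial folate enzyme, and ZC3HAV1 and PARP14 act in antiviral defence. Nearest to KLF2 were KAZALD1 (0.07), MCC (0.10), CLCN3P1 (0.11) and ZSCAN20 (0.11), which rose by 0.90 to 0.99.

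The genes around the 9 members were taken from 7 lists of 92 genes, of which 73 were tested, 20 were called higher and 30 lower, beside 30.7% and 30.9% of all tested genes. With library size alone the balance turned, to 37 higher and 23 lower. The lists were chosen with earlier results of these data known, so these and the following list counts are a description only. Of 10 tested partners of the CCM complex, 0 were higher and 7 were lower, with a median log2 fold change of -0.22. With upper-quartile factors 2 were higher and 6 lower, and with library size alone 3 were higher and 5 lower. STK26, a GCKIII kinase that binds PDCD10, fell from 61.3 ± 4.31 to 33.6 ± 2.15 CPM (SD, n = 3), or by 0.87 on the log2 scale. ITGB1, the integrin β1 chain, fell from 971 ± 22.9 to 547 ± 5.98 CPM, or by 0.83. ITGB1BP1 (ICAP1), which binds both KRIT1 and integrin β1, fell by 0.72, and 33.1% of its exons overlap another gene, ASAP2. HEG1, the membrane receptor of KRIT1, was at 143 ± 2.91 CPM in control and 146 ± 4.68 CPM in knockdown and was not called (adjusted p = 0.536, edgeR). RAP1A, a small GTPase that activates KRIT1, was at 38.6 and 38.8 CPM and was not called (adjusted p = 0.936, edgeR). CCM2L, the paralog of CCM2, had 2 to 13 counts per library and was not tested.

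PDCD10 also sits in STRIPAK, a complex of striatins, kinases and the phosphatase PP2A. Of its 14 other subunits on the list, 4 were higher and 5 lower (median 0.03), beside 30.7% and 30.9% of all tested genes. MOB4 rose from 7.75 ± 0.90 to 19.3 ± 1.40 CPM (log2 fold change 1.31 ± 0.10, SE) and CTTNBP2NL from 40.7 ± 2.37 to 77.0 ± 4.31 CPM (0.92 ± 0.06). The PP2A subunits PPP2R1B and PPP2CA fell by 0.64 and 0.58. With library size alone, 9 of the 14 were higher.

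Of 8 tested genes for the ERK5 cascade, MEF2 factors and the histone deacetylases that restrain them, 4 were higher and 1 lower (median 0.08). Among all tested genes 30.7% were called higher and 30.9% lower. MEF2A rose from 28.5 ± 1.38 to 43.9 ± 0.96 CPM (0.63 ± 0.06 in log2, SE). HDAC9, a class IIa deacetylase, rose by 0.48. MEF2C fell by 0.25, a call lost with library size alone. MAP3K2, which encodes the MEKK3 relative MEKK2, was at 114 and 108 CPM and was not called (adjusted p = 0.106, edgeR). Of 18 tested kinases of the other MAP kinase cascades, 4 were higher and 10 lower (median -0.19), beside the same shares of all tested genes. With library size alone 9 were higher and 9 lower. MAPK13 (p38δ) rose from 4.44 ± 0.77 to 11.3 ± 0.32 CPM and MAP3K4 rose by 0.60, while MAPK9 (JNK2) and MAPK12 (p38γ) fell by 0.69 and 0.57. Other genes overlap 29.3% of the exons of MAPK12.

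**Figure D3:**
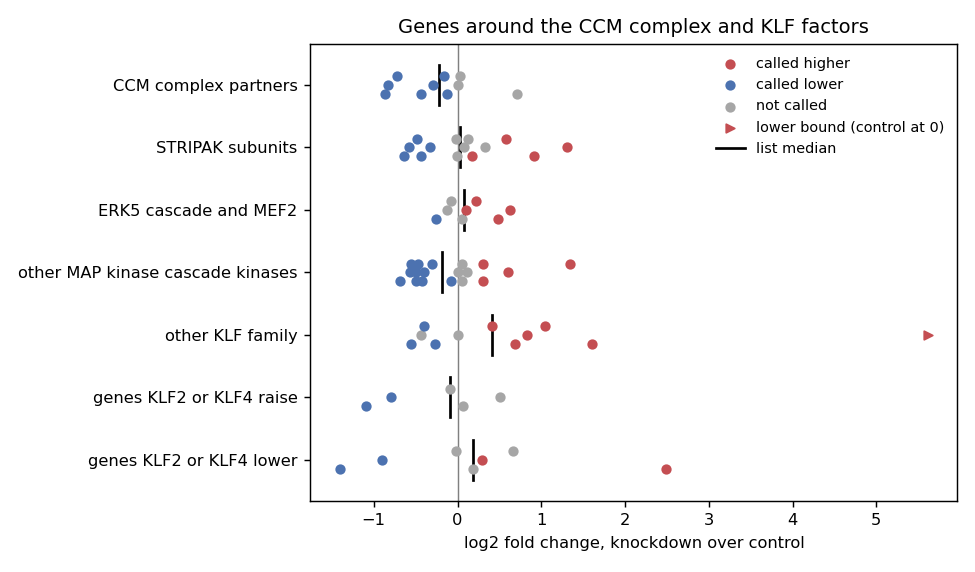
Log2 fold change of each tested gene of the 7 lists, coloured by its call, with the list median as a black bar; the triangle is a lower bound for KLF15, which had no control counts. Among the CCM complex partners no gene was called higher, whereas calls among the other KLF genes were mostly to the right of 0. Among all tested genes 30.7% were called higher and 30.9% lower, and the lists were chosen with earlier results known.

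The KLF family as a whole was measured through 14 further genes, of which 11 were tested. Of these, 6 were higher and 3 lower (median 0.42), beside 30.7% and 30.9% of all tested genes. KLF9 rose from 8.63 ± 1.38 to 26.3 ± 2.00 CPM (SD, n = 3), which is 1.60 ± 0.10 in log2 (SE). KLF10, known as a TGF-β-inducible early gene, rose from 118 ± 3.48 to 243 ± 23.8 CPM, or by 1.05 ± 0.05 (SE) on the log2 scale. KLF16 fell by 0.55 and KLF13 by 0.39. KLF11 also fell, by 0.27. With library size alone, 1 of the 11 was lower.

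KLF15 is named because of its values, outside the rule for named genes. It had 0 counts in all 3 control libraries and 36, 38 and 52 counts in the knockdown libraries. Against the limit of 3 counts over the control group it was at least 49.1-fold higher in knockdown, at a level of 1.57 CPM. KLF1, KLF8 and KLF17 had 0 to 4 counts per library and were not tested.

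Seen per length, the family's order changed. In control, KLF6 supplied 25.6% to 26.04% of the summed level of the 17 KLF genes, KLF2 11.7% to 12.4% and KLF4 3.94% to 4.44%. In knockdown, KLF6 supplied 18.4% to 18.6%, KLF2 13.9% to 16.8% and KLF4 12.6% to 15.1%. The summed level itself went from 158 to 164 in control to 236 to 252 in knockdown. KLF4 moved from the 8th to the 4th place and KLF10 to the first. Within a library, KLF4 stood at 0.34 ± 0.03 times KLF2 in control and at 0.88 ± 0.18 times in knockdown (SD, n = 3). In knockdown replicate 3 it was above KLF2, at 1.09 times. With the longest transcript as length the ratio was 0.44 ± 0.04 in control and 1.15 ± 0.24 in knockdown.

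**Figure D4:**
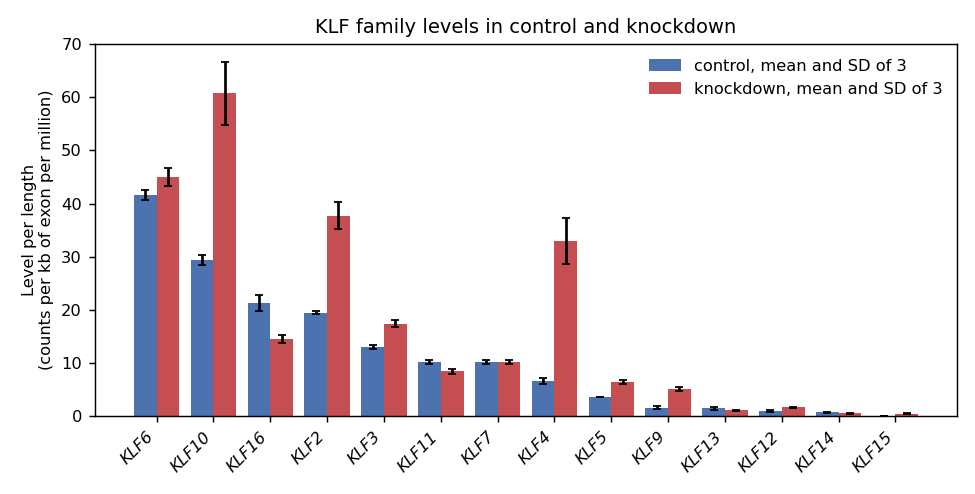
Mean level per length (CPM per kilobase of merged exons) of the 14 KLF genes above 0.1 in either group, in order of their control level, with the SD of 3 libraries. KLF10, KLF2 and KLF4 stand out as the taller red bars, and KLF16 as a taller blue one.

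Of 15 genes that KLF2 or KLF4 are known to raise in endothelium or epithelium, 5 passed the filter on low counts. Of these 5, 0 were higher and 2 lower, beside 30.7% and 30.9% of all tested genes. NOS3, the endothelial nitric oxide synthase, was at 1.28 ± 0.25 CPM in control and 0.60 ± 0.08 CPM in knockdown (SD, n = 3) and was called lower, at -1.10 ± 0.37 in log2 (SE). The NOS3 call rested on 15 to 51 counts per library and was lost without control replicate 1 (-0.93, adjusted p = 0.0601, edgeR). ADAMTS1, a secreted metalloprotease, fell from 8.72 ± 0.84 to 5.04 ± 1.03 CPM. THBD (thrombomodulin) had 4, 4 and 2 counts in the control libraries and 10, 6 and 6 in the knockdown libraries, and was not tested. Other untested genes of the list had few counts too, and no direction is read from them. S1PR1, a sphingosine phosphate receptor, was at 41.9 and 43.7 CPM and was not called (adjusted p = 0.391, edgeR). CDKN1A was not called either (-0.09 on the log2 scale, adjusted p = 0.0704, edgeR).

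Of 10 genes that these factors are known to lower, 7 were tested, 2 were higher and 2 lower, beside 30.7% and 30.9% of all tested genes. With no filter, with DESeq2 and with each library left out in turn, 3 genes of this list were higher and 2 lower. EDN1 (endothelin-1) was at 1.59, 0.86 and 0.80 CPM in control and 5.31, 6.47 and 6.77 CPM in knockdown, which is a log2 change of 2.49 ± 0.22 (SE). CCND1 (cyclin D1) rose by 0.29. CCNB1 (cyclin B1) fell from 494 ± 10.2 to 186 ± 15.7 CPM, and ODC1, of polyamine synthesis, fell by 0.91.

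Library totals ran from 24231515 to 34306849 counts, and each control library was deeper than each knockdown library. KRT8, KRT18 and VIM were abundant (320 to 1367 CPM as group means), whereas the epithelial markers EPCAM and KRT19 were under 1 CPM in every library. Summed, the 5 listed markers of the line were at 2169 to 2235 CPM in control and 1448 to 1531 CPM in knockdown. VIM was the largest part of this sum, at 1367 CPM in control and 839 CPM in knockdown, and shares 24.4% of its exonic bases. VIM (-0.70 in log2) and KRT8 (-0.63) were called lower, and KRT18 was not called. Of 9 endothelial markers, 5 stayed under 1 CPM in every library and none was at 0 throughout. Their summed level was 4.59 to 5.35 CPM in control and 6.97 to 7.69 CPM in knockdown, with KDR and TIE1 called higher. The KDR call was lost with DESeq2 and without knockdown replicate 1 or 3, and that of TIE1 without control replicate 2 or knockdown replicate 3. Summed levels in control and knockdown were 0.40 to 1.10 and 1.42 to 1.64 CPM for 5 leukocyte markers, and 1.63 to 2.96 and 3.15 to 4.70 CPM for 6 fibroblast markers. PDGFRB, a fibroblast marker, rose from 0.21 to 1.57 CPM (2.92 ± 0.45 in log2, SE), a call kept in all 12 settings. PTPRC and DCN were called higher at under 1 CPM, and both calls were lost with DESeq2. The PTPRC call was also lost without control replicate 2 or 3 or knockdown replicate 2, and that of DCN without control replicate 1 or 3 or knockdown replicate 3. The part of these marker differences in the KLF and CCM results was not tested. In such bulk samples fewer cells expressing a gene and less RNA per cell cannot be told apart.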

How the data were processed

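The deposited values are raw read counts, 1 row per Ensembl gene and 1 column per library. The submitters' processing notes name featureCounts 2.0.1, STAR 2.7.0d, DESeq2 1.30.1, Trim Galore 0.6.6 and the build hg38. For their order, settings, annotation and strand handling the sources used here give nothing. From these counts, genes were filtered with filterByExpr (minimum count 10), scaled by TMM and tested with the quasi-likelihood test of edgeR 4.0.16 (robust, group only) in R 4.3.3, with Benjamini-Hochberg adjustment over 17223 genes and a threshold of 0.05. The test was tried on simulated data with few changed genes, which cannot check the scaling of data with so many calls. A first pass mark was missed on low-count genes and was then asked of genes at a mean log2 CPM of at least 1. Standard errors derive from the test statistic. Symbols matched 60261 identifiers. Coordinates and lengths came from GENCODE v29 (GRCh38), promoters from RefSeq.

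Members and lists were chosen with earlier results of these data known. Some listed genes are not reported here and were left out of every list count. Named were all members, for each list at most the 2 largest rises and the 2 largest falls among genes called at a mean log2 CPM of at least 1 (else the 2 smallest p-values), 4 nearest profiles for 3 members and the nearest neighbours; some others are named after their values were seen. Alternatives were RLE, upper-quartile or no factors, no filter, DESeq2 1.42.0, a replicate block, leaving out each library, and 2 other lengths. Differences in counts of any 2 libraries of a group exceeded sampling noise (chi-square per gene 2.80 to 4.66).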

Additional observations from a re-analysis of the deposited data

How the results depend on the processing

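Over 12 other settings no member changed sign, and CCM2, KRIT1, PDCD10, MAP3K3, MAPK7, KLF2 and KLF4 kept their calls in all of them. Their log2 fold changes ran from -2.50 to -2.29 for CCM2, 2.20 to 2.47 for KLF4, 0.91 to 1.11 for KLF2 and 0.59 to 0.83 for KRIT1. The members were chosen on this comparison and the settings reuse its libraries, so kept calls are no support for them. MAP2K5 also lost its call with no filter (0.14) and with DESeq2 (0.13). Without scaling factors (library size alone), the median of all genes moved up by 0.15 in log2, with 64.4% of calls higher against 49.9%, and it gave 37 of the list genes higher and 23 lower in place of 20 and 30. Per list, it gave 3 CCM partners higher (main 0), 9 STRIPAK subunits (4), 9 MAP kinase cascade kinases (4) and 2 genes that KLF2 or KLF4 raise (0), with 0 genes of the ERK5 list (1) and 1 of the other KLF genes (3) lower. Upper-quartile factors gave 2 CCM partners and 7 STRIPAK subunits higher. Of the genes that KLF2 or KLF4 raise, 1 was lower without control replicate 1 (2 with all libraries) and 1 was higher without control replicate 2; 1 CCM partner was higher without knockdown replicate 1. With the replicate block, 6 members were higher and 3 lower, as in the fit without it, and over all genes 5214 were higher and 5263 lower; deviations of same-numbered libraries correlated at -0.000751, -0.00642 and -0.0235, and no library correlated best with its own number, so the numbers were not taken as pairs. Per-length levels depend on the length used: CCM2 was at 21.0 in control with the longest transcript, and KRIT1 at 3.26 with unshared exon bases alone, which brought the ratio of CCM2 to it down to 4.25 in control and 0.48 in knockdown. Counts of 550 and fewer limit KRIT1, and THBD, CCM2L and other genes under the filter could not be tested at this depth.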
